A study of Homo sapiens with 30 samples.

Results

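The comparison set 7 days of GSK591 against 7 days of MS023 in A549 cells that then received dexamethasone (Dex) for 3 h. GSK591 inhibits PRMT5, the main enzyme that dimethylates arginines symmetrically, and MS023 inhibits the type I arginine methyltransferases, such as PRMT1, which dimethylate them asymmetrically. Dex is a synthetic glucocorticoid that activates the glucocorticoid receptor. The libraries were chosen by their labels alone: 2 of GSK591 1 µM and 2 of MS023 1 µM, each followed by Dex 100 nM, together 4 of the 30 libraries in 15 groups of 2. All 58780 genes of the count table belong to the comparison, and 22919 passed the filter on low counts and were tested.

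A549 is an established line of human lung adenocarcinoma cells, and nascent transcription was measured by PRO-seq (precision run-on sequencing), which counts reads from RNA polymerases that were engaged on genes when the cells were permeabilized. Cells of every group, untreated ones included, were kept in 0.01% DMSO. The other groups used here were the inhibitors for 7 days without Dex, the inhibitors for 7 days before Dex for 15 min, the inhibitors given together with Dex for 3 h, Dex alone for 3 h, and untreated cells, each with 2 libraries. All are 1 cell line, and nothing in the labels says that the 2 libraries of a group came from separate cultures, so p-values measure only the spread between these libraries.

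The 4 libraries held 9042606 to 11934842 reads in genes. Mitochondrial genes took 71.1% and 76.0% of them after GSK591 and Dex, and 58.7% and 59.8% after MS023 and Dex, so the reads left for other genes were 2707054 and 2835093 with GSK591 and 3761137 and 3614734 with MS023. All 18 of the 35 tested mitochondrial genes that were called were higher with GSK591, and the median log2 fold change of the 35 was 1.14. Libraries were scaled by edgeR's trimmed mean of M-values, which leaves the median log2 fold change of all tested genes at -0.02. Scaling by total reads instead moved that median to -0.85, and the split of called genes from 1393 higher and 1157 lower to 140 higher and 12610 lower. All fold changes below are therefore relative to the bulk of genes, and the part of the mitochondrial share in them was not tested.

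The 6 markers of A549 and epithelial cells summed to 657 and 735 cpm (normalised counts per 1000000 reads, written in lower case to set the unit apart from the gene CPM) with GSK591 and to 777 and 811 with MS023. Of these 6, KRT18 and KRT8 were lower and KRT19 and CDH1 higher with GSK591. The summed markers of other cell types were low in both groups: 32.4 to 40.4 and 27.4 to 29.8 for 9 genes of alveolar type II cells, 5.94 to 6.06 and 6.7 to 10.2 for 7 genes of fibroblasts, and at most 4.96 for 5 endothelial, 7 leukocyte and 3 erythroid genes.

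Arginine methylation by these enzymes marks histones, splicing factors and transcription regulators. PRMT5 acts with its partner WDR77 and is needed for correct splicing and for proliferation in many cell lines, whereas the type I enzymes modify RNA-binding proteins and coactivators of nuclear receptors. In lung epithelial cells a glucocorticoid switches on feedback genes such as FKBP5, TSC22D3 and PER1 and dampens genes of inflammation.

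GSK591 before Dex left a transcription programme that differed from that of MS023 before Dex in 2550 genes, of which 1393 were higher and 1157 lower with GSK591. Lower with GSK591 were AQP3 and 34 of 36 tested histone genes. The fall of AQP3 was the largest among called genes of at least 5 cpm on average whose groups do not overlap. The complement gene C3, the chemokine gene CXCL1 and several genes of the p53 response and of the actin cytoskeleton were higher. The called genes made up 11.1% of those tested (edgeR's quasi-likelihood test, Benjamini-Hochberg adjusted p below 0.05), with 6.08% higher and 5.05% lower. Their median log2 fold change was 0.86 on the higher side and -0.71 on the lower side, and 854 of them changed by more than 1 on the log2 scale.

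The count of called genes depended on having both libraries of each group. It was 1572 and 1339 without the first or the second GSK591 library, and 1543 and 1284 without the first or the second MS023 library. DESeq2 called 816 higher and 605 lower.

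**Figure D1:**
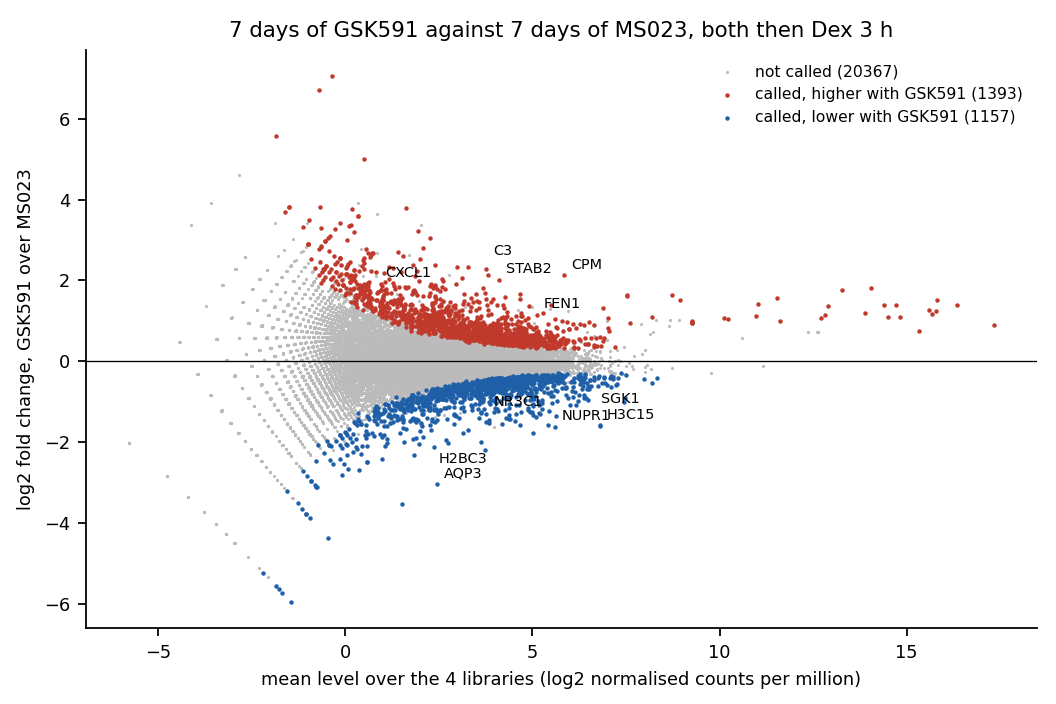
Log2 fold change (GSK591 over MS023, both for 7 days and then Dex 3 h) against the mean level over the 4 libraries in log2 cpm. Each point is a gene, with 1393 genes called higher in red and 1157 called lower in blue, and the points at the far right are mitochondrial genes.

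Protein-coding genes were 77% of the higher genes and 75.6% of the lower genes, beside 65.4% of all tested genes. The called protein-coding genes had a median length of 22.1 kb on the higher side and 28.6 kb on the lower side, beside 31.2 kb for all those tested.

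The complement component gene C3 (chromosome 19, 6677704 to 6730562, minus strand, hg38) stood at 22.1 and 23.4 cpm with GSK591 and at 4.83 and 4.43 with MS023. The log2 fold change of C3 was 2.29 ± 0.22 (SE, edgeR adjusted p = 1.31e-10). The largest rises, C3 among them, were chosen among genes whose groups do not overlap, so that separation was fixed by the choice. Of all tested genes, 25.6% had both GSK591 libraries above both MS023 libraries. The cannabinoid receptor gene CNR1 (chromosome 6, 88139864 to 88166359, minus strand) stood at 16 and 16.3 with GSK591 and at 2.78 and 3.62 with MS023, a log2 fold change of 2.33 ± 0.25 (edgeR adjusted p = 1.76e-09). Dex alone gave 2.55 and 2.93 for CNR1 and 3.51 and 3.79 for C3, so for both genes the MS023 libraries were near those of Dex alone and the GSK591 libraries were the high ones.

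CPM, which encodes the membrane enzyme carboxypeptidase M, was the most strongly read of the 12 largest rises, at 86.9 and 101 cpm with GSK591 and 21.9 and 21.2 with MS023. Its log2 fold change was 2.12 ± 0.14 (edgeR adjusted p = 2.26e-15), and Dex alone gave 8.19 and 13.6. On chromosome 12 the gene CPM (68842197 to 68971570, minus strand) runs into the end of MDM2 (68808176 to 68850686, plus strand), so reads of the pair may not be separable. The authors' deposited tables, which compare each inhibitor before Dex with untreated cells, put CPM at a log2 fold change of 1.95 with GSK591 and 1.67 with MS023, a far smaller gap.

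STAB2, which encodes the scavenger receptor stabilin-2, stood at 28.2 and 27.1 cpm with GSK591 and at 6.81 and 6.79 with MS023, a log2 fold change of 2.02 ± 0.19 (edgeR adjusted p = 3.02e-11). In the authors' deposited tables STAB2 was at 0.08 with GSK591 and 0.07 with MS023, so they show no gap for it. AOC3, KIAA1614, LYPD1 and 2 non-coding genes, AL034417.3 and AC145098.2, were higher by 1.87 to 2.38 on the log2 scale. Chemokine gene CXCL1 stood at 11 and 8.48 with GSK591 and 2.86 and 2.07 with MS023, a log2 fold change of 1.98 ± 0.22 (edgeR adjusted p = 4.21e-09).

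GFAP and MEG3 completed the 12 largest rises, but their GSK591 libraries were far apart. GFAP, an intermediate filament gene of glia, stood at 9.59 and 36.1 cpm with GSK591 and at 4.91 and 5.39 with MS023. Without the second GSK591 library its call was lost (edgeR adjusted p = 0.338), as it was without the first MS023 library (edgeR adjusted p = 0.0839) or the second (edgeR adjusted p = 0.0751). The imprinted non-coding gene MEG3 stood at 8.05 and 20.1 against 4.47 and 2.29, and its call was lost in a fit of these 4 libraries alone (edgeR adjusted p = 0.242).

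On the lower side, AQP3, the gene of the water and glycerol channel aquaporin 3, stood at 1.21 and 1.15 cpm with GSK591 and at 10.7 and 8.78 with MS023. Its log2 fold change was -3.03 ± 0.34 (edgeR adjusted p = 5.19e-09). This was the largest fall among called genes with at least 5 cpm on average whose groups do not overlap. The GSK591 values of AQP3 came from 11 and 10 reads. Dex alone gave 3.19 and 3.17, so the GSK591 libraries lay below Dex alone and the MS023 libraries above it. NUPR1, a small stress-induced chromatin protein gene, stood at 24 and 23.3 with GSK591 and 70.5 and 75.2 with MS023, a log2 fold change of -1.62 ± 0.15 (edgeR adjusted p = 3.02e-11).

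The transcription factor gene ONECUT1 stood at 1.88 and 1.95 cpm with GSK591 and 8.57 and 8.19 with MS023. HILPDA, a gene of a lipid droplet protein, stood at 23.3 and 19.5 against 63.8 and 64.5. The chemokine gene CCL2 stood at 4.96 and 3.1 against 12.8 and 14.8, a log2 fold change of -1.77 ± 0.22 (edgeR adjusted p = 3.93e-08), in the opposite direction to CXCL1. The 12 largest falls were chosen among genes whose groups do not overlap.

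The non-coding genes GREM1-AS1 and AC239868.1 and the histone genes H2BC3, H1-5 and H3C15 were also among the 12 largest falls. H3C15 has a near-identical copy, H3C14, so its reads may be split between them, and LILRB3 likewise belongs to a family of similar receptor genes. Of the 12 largest falls, 7 were found in the authors' deposited tables, and all but LILRB3 had the lower value with GSK591 there. LILRB3 stood at 0.09 with GSK591 and 0.07 with MS023 in the authors' deposited tables, at a mean of 0.776 normalised reads. MKI67, the proliferation antigen gene, stood at 13.4 and 15.8 with GSK591 and 60.3 and 40.5 with MS023. Its call was lost without the first GSK591 library (edgeR adjusted p = 0.118), the second GSK591 library (0.0868) or the first MS023 library (0.125).

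Histone genes of the replication-dependent clusters were lower with GSK591 as a group. These genes encode the core and linker histones that package newly made DNA, and their transcription peaks in S phase. Of 42 listed genes 36 were tested, and 34 of them fell and none rose, beside 5.05% of all tested genes called lower. Their median log2 fold change was -1.07, and the 34 ranged from -0.48 to -2.02. The group remained lower with DESeq2's size factors, with 34 of 36 called lower and a median of -1.07. Scaled by total reads, 35 of 36 were called lower. That scaling also called 12610 of all 22919 tested genes lower, so it could not test the direction of the group.

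To show what these genes share next to their start sites, the 250 bases before the start are given for 1 gene of each histone class, all on chromosome 6 and read from the RefSeq promoter table (GRCh38.p14, minus strand, 5′ to 3′). Capitals mark the CCAAT box, the TATA box TATAAA, the octamer ATTTGCAT and the linker histone element AAACACAAA, each searched on both strands. The windows are chr6:27867589-27867838 for H1-5, chr6:26033619-26033868 for H2AC4, chr6:26043714-26043963 for H2BC3, chr6:26032100-26032349 for H3C2 and chr6:26027284-26027533 for H4C2.
H1-5: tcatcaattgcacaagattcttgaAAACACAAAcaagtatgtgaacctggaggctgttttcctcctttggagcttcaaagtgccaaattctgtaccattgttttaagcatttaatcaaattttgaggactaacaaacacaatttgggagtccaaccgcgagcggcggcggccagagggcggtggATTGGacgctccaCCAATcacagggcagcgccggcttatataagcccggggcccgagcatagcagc
H2AC4: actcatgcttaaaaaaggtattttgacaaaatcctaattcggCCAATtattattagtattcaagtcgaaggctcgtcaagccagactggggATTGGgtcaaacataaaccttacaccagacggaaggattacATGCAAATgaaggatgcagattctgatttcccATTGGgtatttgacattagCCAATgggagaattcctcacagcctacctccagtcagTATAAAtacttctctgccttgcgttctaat
H2BC3: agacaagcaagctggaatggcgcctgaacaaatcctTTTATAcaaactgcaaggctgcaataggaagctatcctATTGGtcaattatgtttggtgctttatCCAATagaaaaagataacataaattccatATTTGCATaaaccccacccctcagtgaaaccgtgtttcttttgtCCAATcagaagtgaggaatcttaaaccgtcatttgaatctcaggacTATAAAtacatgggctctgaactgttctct
H3C2: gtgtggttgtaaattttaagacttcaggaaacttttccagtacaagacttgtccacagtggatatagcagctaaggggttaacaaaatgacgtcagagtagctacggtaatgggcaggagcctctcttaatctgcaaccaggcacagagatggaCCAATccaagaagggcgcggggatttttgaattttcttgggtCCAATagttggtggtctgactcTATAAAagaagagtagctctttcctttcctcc
H4C2: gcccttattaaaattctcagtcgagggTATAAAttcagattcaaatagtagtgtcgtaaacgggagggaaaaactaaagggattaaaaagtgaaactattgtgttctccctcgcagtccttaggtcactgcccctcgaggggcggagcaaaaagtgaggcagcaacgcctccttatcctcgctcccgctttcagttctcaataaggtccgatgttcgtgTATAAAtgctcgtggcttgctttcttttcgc

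A CCAAT box was found in 26 of the 32 histone promoters in the table (81.2%), beside 33% of all 27305 promoters of the same length. The letters TATAAA were in 24 (75%), beside 11.1%, and the octamer in 13 (40.6%), beside 1.66%. The octamer was in 5 of 5 H2A promoters and 8 of 11 H2B promoters, and in none of the others. The linker histone element was in 2 of 4 H1 promoters, beside 0.546% of all promoters. H4 promoters differed from the rest, with a CCAAT box in 1 of 7. These are matches of letters and no test was made of them.

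H2BC3 stood at 2.54 and 2.75 cpm with GSK591 and at 10.4 and 11.1 with MS023, a log2 fold change of -2.02 ± 0.22 (edgeR adjusted p = 2.17e-09). H1-5, a linker histone gene, stood at 3.97 and 5.85 against 16.9 and 22.7, a log2 fold change of -2.01 ± 0.24 (edgeR adjusted p = 1.81e-06). H3C2 stood at 12.7 and 12.9 against 37.7 and 39. Both GSK591 values of H3C2 lay below both MS023 values, as in 27% of all tested genes. H2BC3 and H1-5 were chosen among genes whose groups do not overlap, so their separation was fixed by that choice.

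By class the median log2 fold change was -1.37 for 4 H1 genes, -1.01 for 6 H2A genes, -1.08 for 11 H2B genes, -1.22 for 6 H3 genes and -0.86 for 9 H4 genes. The 2 members that did not pass were H4C11, at -0.32 ± 0.14 (edgeR adjusted p = 0.141), and H2BC7, at -0.01 ± 0.55 (edgeR adjusted p = 0.997).

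**Figure D2:**
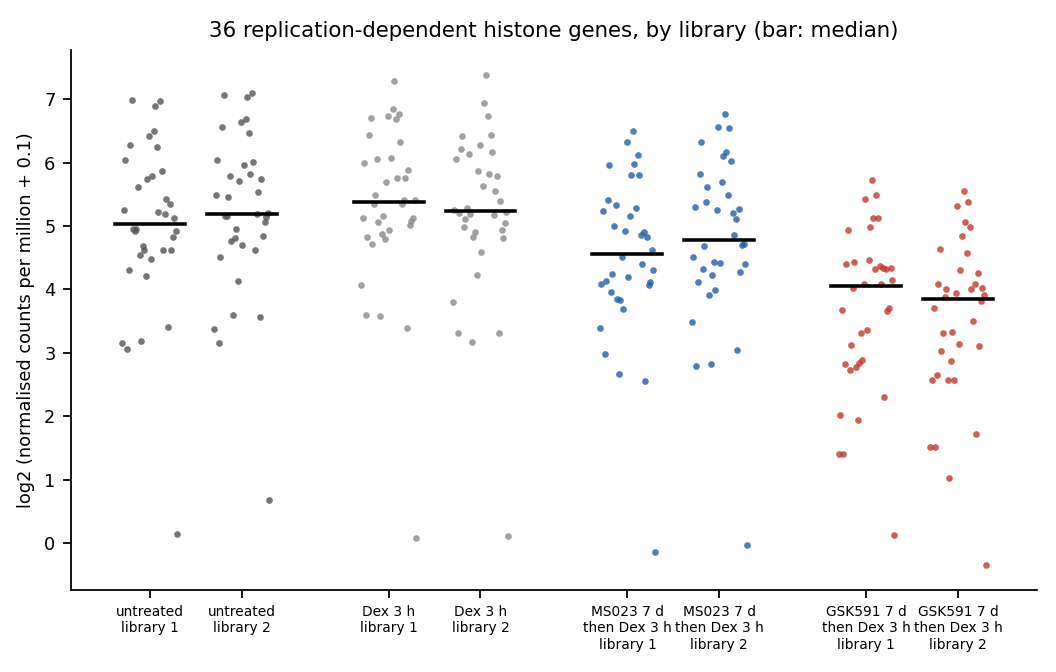
Levels of the 36 tested replication-dependent histone genes in log2 (cpm + 0.1), by library, in untreated cells, after Dex alone, and after MS023 or GSK591 for 7 days and Dex; points are genes and bars are medians. The medians of the 2 GSK591 libraries are below those of the 2 MS023 libraries, and both are below those of Dex alone.

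Both inhibitors left histone genes lower than Dex alone, by different amounts. Against Dex alone, the median log2 fold change of the 36 genes was -1.68 with GSK591 before Dex, with 35 called lower, and -0.62 with MS023 before Dex, with 27 called lower. Over all tested genes 7.36% were called lower in the first of these comparisons and 6.11% in the second. The 2 comparisons share the libraries of Dex alone.

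Genes of mitosis were lower with GSK591, with a median log2 fold change of -0.87 over 42 tested genes. Of these, 11 fell (26.2%) and 1 rose (2.38%), beside 5.05% called lower and 6.08% called higher of all tested genes. The kinase gene AURKB, which acts in chromosome segregation, stood at 7.72 and 8.02 cpm with GSK591 and at 19.4 and 19.5 with MS023, a log2 fold change of -1.30 ± 0.15 (edgeR adjusted p = 7.1e-09). BIRC5, the gene of its partner survivin, fell by 0.92 ± 0.16 on the log2 scale, from 14.8 and 12 to 6.73 and 7.45. The count of called genes was 7 without the second GSK591 library and 7 without the first MS023 library, and 20 (19 lower) in a fit of these 4 libraries alone.

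CCNB2, the gene of cyclin B2, was the exception, at 36.3 and 34.2 cpm with GSK591 and 16.2 and 16.5 with MS023. Its log2 fold change was 1.11 ± 0.14 (edgeR adjusted p = 7.59e-08) from the deposited counts. The authors' deposited tables give the opposite order for CCNB2, with a log2 fold change against untreated cells of -1.48 with GSK591 and -0.52 with MS023. Of the 37 promoters of the mitotic list in the RefSeq table, 17 (45.9%) held the letters TTTGAA, beside 13.6% of all promoters, and 26 (70.3%) held a CCAAT box.

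DNA replication genes were lower as well, with 12 of 46 called lower, 1 higher and a median log2 fold change of -0.43. The share called lower was 26.1%, beside 5.05% of all tested genes. RRM2, a subunit gene of ribonucleotide reductase, which makes DNA precursors, stood at 16 and 14.2 cpm with GSK591 and at 31.6 and 32.3 with MS023 (log2 fold change -1.08 ± 0.12, edgeR adjusted p = 8.41e-09). E2F8, a repressor of the E2F family, fell by 1.87 ± 0.29 on the log2 scale and the replication fork gene GINS4 by 1.5 ± 0.25. The letters TTTGGCGC or TTTCCCGC, forms of the E2F site, were in 15 of 38 promoters of the list (39.5%), beside 1.96% of all promoters. The count of called genes was 6 without the second GSK591 library and 8 by DESeq2.

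FEN1, the gene of the flap endonuclease that processes Okazaki fragments, was the 1 gene of the replication list called higher, at 47.8 and 47.6 cpm against 22.6 and 20.6 (log2 fold change 1.14 ± 0.11, edgeR adjusted p = 2.9e-10). As for CCNB2, the authors' deposited tables have the opposite order for FEN1, at -2.05 with GSK591 and -0.92 with MS023 against untreated cells. FEN1 shares exonic bases with another gene on its own strand and one on the other.

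Genes of homologous recombination and Fanconi anaemia repair followed, with 11 of 27 called lower, none higher and a median of -0.52. Those called lower were 40.7%, beside 5.05% of all tested genes. BARD1, the partner gene of BRCA1, stood at 1.43 and 1.38 cpm with GSK591 and 4.76 and 4.21 with MS023. XRCC2, a homologous recombination gene, stood at 1.88 and 2.29 against 6.15 and 5.91. The log2 fold changes were -1.67 ± 0.34 and -1.53 ± 0.29 (edgeR adjusted p = 0.000462 and 0.000219). DESeq2 called 5 of the list. The count was 6 and 4 without the first or second GSK591 library and 4 and 7 without the first or second MS023 library.

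Of 15 genes of cyclin D and CDK control, 4 fell (26.7%, beside 5.05% of all tested genes) and 1, CDKN1A, rose (6.67%, beside 6.08%). CDKN2C, which encodes the CDK4 and CDK6 inhibitor p18, stood at 11.4 and 11.8 with GSK591 and 22.4 and 31.4 with MS023, a log2 fold change of -1.21 ± 0.17 (edgeR adjusted p = 6.56e-07). CDK6 and CDKN1B fell by 0.84 and 0.64 on the log2 scale.

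**Figure D3:**
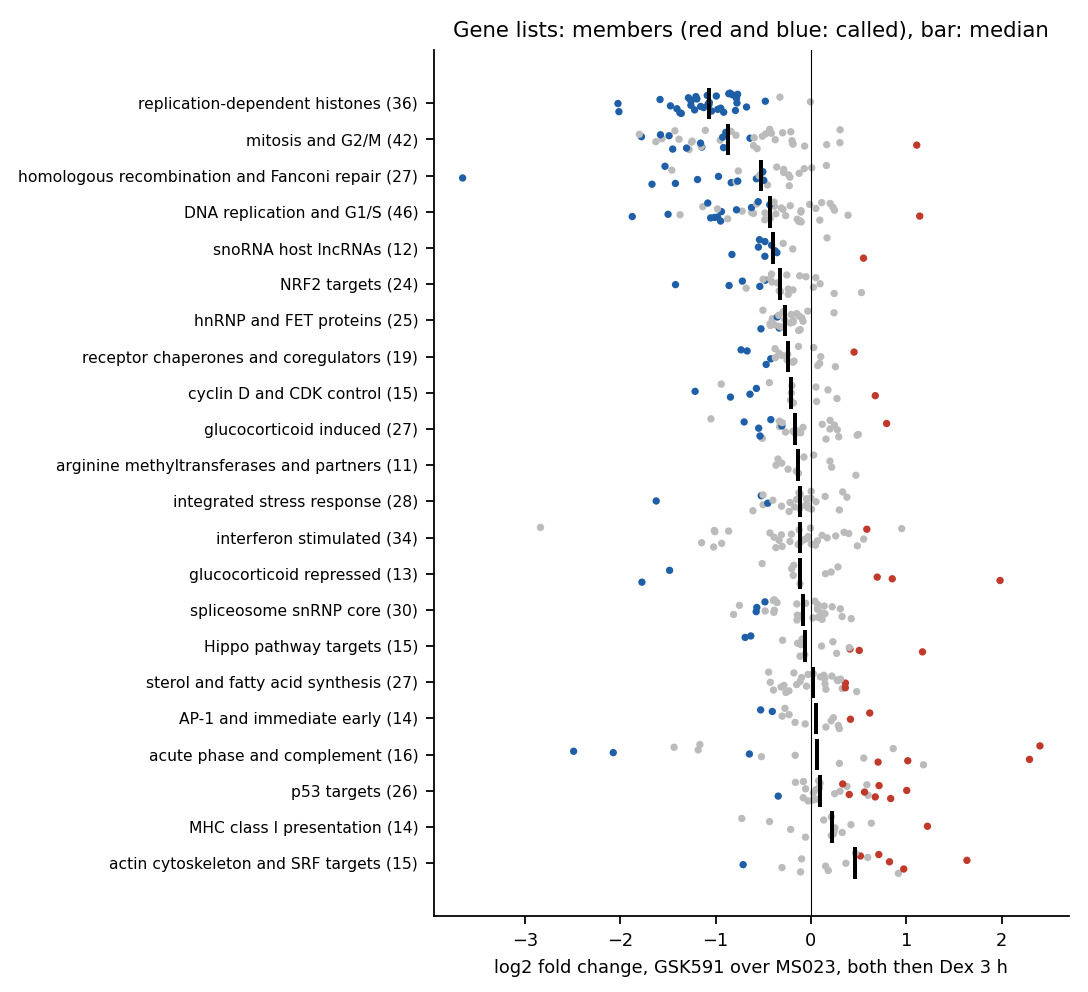
Log2 fold change (GSK591 over MS023, both then Dex 3 h) of each tested member of 22 gene lists, with the number of tested members in brackets and the list median as a bar; red and blue points passed an adjusted p of 0.05. Histone genes have the lowest median (-1.07) and genes of the actin cytoskeleton the highest (0.47).

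Targets of p53 were called higher more often than lower with GSK591, 7 against 1 of 26, with a median log2 fold change of 0.09. That is 26.9% higher and 3.85% lower, beside 6.08% and 5.05% of all tested genes. PLK3, a stress kinase gene, stood at 36.3 and 29.3 cpm with GSK591 and at 15.5 and 17.2 with MS023 (log2 fold change 1.00 ± 0.14, edgeR adjusted p = 6.15e-07). The growth arrest gene BTG2 stood at 69.9 and 58 against 37.4 and 34.2, and CDKN1A, the gene of the CDK inhibitor p21, at 56 and 55.6 against 34.6 and 35.4. MDM2, the gene of the p53 ubiquitin ligase, stood at 130 and 159 against 97.5 and 98.4.

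Against Dex alone, MDM2 was higher after both inhibitors, by 1.40 with GSK591 and 0.84 with MS023 on the log2 scale, in comparisons that share the libraries of Dex alone. The p53 list had 5 called genes without the second GSK591 library and 4 without any of the other 3, 4 by DESeq2 and 5 with no filter on low counts. Scaled by total reads, CDKN1A and MDM2 were lower with GSK591 (-0.15 and -0.28) and 17 of the list were called lower and none higher.

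Of 15 tested genes of the actin cytoskeleton and of serum response factor, 5 were called higher (33.3%, beside 6.08% of all tested genes). In the same list 1 was called lower (6.67%, beside 5.05%), and the median was 0.47. FLNA, the gene of the actin crosslinker filamin A, stood at 154 and 176 cpm with GSK591 and 104 and 83 with MS023 (log2 fold change 0.82 ± 0.12, edgeR adjusted p = 2.45e-06). TPM2, a tropomyosin gene, stood at 53.7 and 57.2 against 34.3 and 33.4. FLNA was near Dex alone with GSK591 (-0.04) and lower with MS023 (-0.87). Scaled by total reads the direction of the list turned, with none called higher, 5 lower and a median of -0.36, and both genes changed sign (FLNA -0.01, TPM2 -0.12). The count of called genes was 3 without the first or the second GSK591 library or the first MS023 library.

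Of 27 tested glucocorticoid-induced genes, 5 fell (18.5%, beside 5.05% of all tested genes) and 1 rose (3.7%, beside 6.08%) with GSK591. The median log2 fold change of the list was -0.16. FKBP5, which encodes a cochaperone that restrains the receptor, stood at 33.6 and 37.4 cpm with GSK591 and Dex and at 42.8 and 38.1 with MS023 and Dex, beside 5.56 and 5.24 in untreated cells. PER1, a circadian clock gene, stood at 39.6 and 42.8 against 35.7 and 40.1. Neither passed the test (edgeR adjusted p = 0.641 and 0.626). Their log2 fold changes were -0.19 ± 0.21 and 0.12 ± 0.13.

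SGK1, the gene of a serum and glucocorticoid regulated kinase, stood at 66.2 and 68.4 cpm with GSK591 and 98.1 and 121 with MS023, a log2 fold change of -0.70 ± 0.11 (edgeR adjusted p = 1.19e-05). TSC22D3, the gene of the anti-inflammatory protein GILZ, stood at 121 and 108 against 145 and 161, with a log2 fold change of -0.42 ± 0.11 (edgeR adjusted p = 0.00975). The call of TSC22D3 was lost without the second GSK591 library (edgeR adjusted p = 0.153) or the second MS023 library (0.132), and the count for the list was then 2 in each case.

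RGS2, a regulator of G protein signalling, was the induced gene called higher with GSK591, at 35.8 and 36.7 against 20.9 and 20.9 (log2 fold change 0.79 ± 0.13, edgeR adjusted p = 1.55e-05). Scaled by total reads, RGS2 changed sign (-0.04).

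NR3C1, the gene of the glucocorticoid receptor itself, stood at 32.6 and 32 cpm with GSK591 and at 45.3 and 57.5 with MS023, beside 34.8 and 41.8 after Dex alone. The log2 fold change between the inhibitors was -0.67 ± 0.11 (edgeR adjusted p = 3.25e-05). Against Dex alone it was -0.24 with GSK591, which did not pass (edgeR adjusted p = 0.177), and 0.43 with MS023, which did (edgeR adjusted p = 0.00758). Of the 19 genes of receptor chaperones and coregulators, which include NR3C1, 4 fell (21.1%, beside 5.05% of all tested genes) and 1 rose (5.26%, beside 6.08%). NRIP1, a receptor corepressor gene, fell by 0.73 on the log2 scale. The count for this list was 2 without the second GSK591 or the second MS023 library.

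Genes that glucocorticoids repress split. Chemokine genes CXCL1 and CXCL2 were higher with GSK591 (1.98 and 0.85 on the log2 scale) while CCL2 and GREM1, the gene of the BMP antagonist gremlin, were lower (-1.77 and -1.48). Of 13 tested genes, 3 rose (23.1%, beside 6.08% of all tested genes) and 2 fell (15.4%, beside 5.05%). The third that rose, CXCL3 (0.69), is named after its value was seen. CCL2 was above Dex alone with both inhibitors, by 0.90 with GSK591 and 2.67 with MS023.

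Complement and acute phase genes split too, with 4 of 16 higher (25%, beside 6.08% of all tested genes) and 3 lower (18.8%, beside 5.05%). C1S and C1R, which encode the proteases of the first complement component, were higher by 1.02 ± 0.19 and 0.70 ± 0.14 on the log2 scale, from 8.86 and 6.42 to 14.9 and 16.1 and from 15.9 and 17 to 25.1 and 28.4 cpm. C1R changed sign when scaled by total reads (-0.13), which left 1 of the list higher and 7 lower. The fibrinogen genes FGA, FGB and FGG were the 3 called lower, and SERPINA3, a protease inhibitor gene, the fourth called higher; FGB, FGG and SERPINA3 are named after their values were seen (-2.07, -2.49 and 2.40). FGA stood at 11.6 and 11.1 against 17.1 and 18.4. Its call was lost without the second GSK591 library (edgeR adjusted p = 0.0505) or the second MS023 library (0.0534), and the list then had 3 and 4 called genes.

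Targets of the oxidative stress factor NRF2 were lower in 5 of 24 (20.8%, beside 5.05% of all tested genes) and higher in none. Their median was -0.33. The glutathione peroxidase gene GPX2 stood at 11.8 and 10.8 with GSK591 and 29.3 and 31.1 with MS023, a log2 fold change of -1.42 ± 0.15 (edgeR adjusted p = 1.85e-09). Against Dex alone GPX2 was at -0.04 with GSK591 and 1.37 with MS023. Without the second GSK591 library, or without either MS023 library, 3 genes of the list were called, and 8 (7 lower) in a fit of these 4 libraries alone.

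Long non-coding genes that host small nucleolar RNAs were lower in 8 of 12 (66.7%, beside 5.05% of all tested genes) and higher in 1. SNHG1 stood at 21.4 and 22.9 cpm with GSK591 and 39.7 and 39 with MS023 (log2 fold change -0.83 ± 0.13, edgeR adjusted p = 6.36e-06), and GAS5 at 71.1 and 64.8 against 96.1 and 93.8. Overlapping genes share exonic bases with all 12 of these hosts. The gene called higher, EPB41L4A-AS1 (0.55), had the opposite order in the authors' deposited tables and under scaling by total reads (-0.28). The count was 5 without the second GSK591 library.

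The targeted enzymes were not called. PRMT5 stood at 6.07 and 6.3 cpm with GSK591 and at 7.91 and 7.38 with MS023 (log2 fold change -0.31 ± 0.20, edgeR adjusted p = 0.365), and PRMT1 at 28 and 27.7 against 30.5 and 35.3 (-0.24 ± 0.11, edgeR adjusted p = 0.183). Both drugs inhibit proteins, so these levels do not check the labels. None of the 11 tested genes of arginine methyltransferases and their partners passed, beside 11.1% of all tested genes. In so short a list that share would leave few genes called. 

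Few genes passed in 5 other lists, beside 5.05% called lower and 6.08% called higher of all tested genes. Of 30 core spliceosome genes SNRPA, LSM6 and SNRPE were called lower (10%), and of 25 hnRNP and FET genes HNRNPA0, HNRNPA1 and HNRNPLL (12%). Called higher were STAT2 of 34 interferon-stimulated genes (2.94%) and HLA-F of 14 genes of class I antigen presentation (7.14%). Of 27 genes of sterol and fatty acid synthesis FASN and IDI1 were called higher (7.41%). Of these 10 genes only HNRNPA0 (-0.52, edgeR adjusted p = 0.000702) kept its call in each fit without 1 library. The edgeR adjusted p of the others reached 0.0923 for SNRPA without the first GSK591 library, 0.182 for LSM6, 0.342 for SNRPE and 0.374 for HNRNPLL without the second MS023 library, and 0.117 for HNRNPA1 without the first GSK591 library. It reached 0.343 for STAT2 and 0.358 for FASN without the second GSK591 library, 0.11 for HLA-F without the first MS023 library, and 0.373 for IDI1 without the first GSK591 library. Scaled by total reads, STAT2, FASN and IDI1 changed sign (-0.26, -0.48 and -0.45).

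The integrated stress response list had 3 of 28 genes lower: NUPR1, the amino acid transporter gene SLC3A2 (-0.52) and the mTORC1 inhibitor gene DDIT4 (-0.45), whose call was lost without the second GSK591 library (edgeR adjusted p = 0.0557). These 3 genes were 10.7% of the stress response list, beside 5.05% called lower of all tested genes. Of 14 genes of AP-1 and the immediate early response, 2 rose and 2 fell (14.3% each, beside 6.08% and 5.05%). JUN, at 36.7 and 35 with GSK591 and 23.9 and 22.8 with MS023, was higher by 0.62 but changed sign under scaling by total reads (-0.21). The AP-1 list had 1 called gene without the second GSK591 library and 2 without the second MS023 library, and 9 lower and none higher when scaled by total reads. Of 15 genes of the Hippo pathway list 3 rose (20%, beside 6.08%) and 2 fell (13.3%, beside 5.05%). ANKRD1, an ankyrin repeat protein gene, was at 22.2 and 19 against 8.57 and 9.74. The 2 that fell, YAP1 (-0.63) and WWTR1 (-0.69), encode coactivators of the pathway and are not its targets. YAP1 was at -0.33 without the second GSK591 library and WWTR1 at -0.43 without the first. In a fit of these 4 libraries alone YAP1 did not pass (edgeR adjusted p = 0.0691). The Hippo list had 3 called genes without the first GSK591 library, 2 without the second MS023 library and 3 in a fit of these 4 libraries alone, and 11 lower and none higher when scaled by total reads.

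The same inhibitors were then compared without Dex, to see how much of the difference was there beforehand. After 7 days alone, 2149 genes were called (9.38% of those tested), 1125 higher (4.91%) and 1024 lower (4.47%) with GSK591, and no library is shared with the comparison before Dex 3 h. Of the 2550 genes called before Dex 3 h, 1068 were also called at 7 days, which is 41.9% of the first list and 49.7% of the second, and 1066 of the shared genes moved the same way. The median log2 fold change at 7 days of the genes called before Dex 3 h was 0.55 for the higher and -0.45 for the lower. Across 11125 genes with at least 5 cpm the log2 fold changes of the 2 comparisons had a Pearson r of 0.685, given as a description, since genes are not independent replicates. Without 1 of the 4 libraries at 7 days, 1062 to 1230 genes were called there: 1062 and 1092 without the first or second GSK591 library and 1128 and 1230 without the first or second MS023 library.

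C3 stood at 7.91 and 7.77 cpm after GSK591 alone and at 2.12 and 2.17 after MS023 alone, so the gap was there without Dex at lower levels. AURKB stood at 5.12 and 8.31 against 19.8 and 20.9. The histone list had a median of -0.97 at 7 days, with 33 of 36 called lower, and the mitotic list -0.66, with 14 lower. Over all tested genes 4.91% were called higher and 4.47% lower at 7 days. In the actin list 11 of 15 were called higher at 7 days and 0 lower, with a median of 0.81. Before Dex 15 min that list had 12 higher and 1 lower, beside 7.56% and 8.06% of all tested genes, and a median of 0.90. Among the comparisons after 7 days of inhibitor, its median was thus smallest before Dex 3 h. With the inhibitors given together with Dex for 3 h, the median was -0.20. None of the genes of the actin list was called in the interaction.

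Before Dex for only 15 min, 3581 genes were called (15.6%, with 7.56% higher and 8.06% lower), and 1335 of them were shared with the comparison before Dex 3 h, 52.4% and 37.3% of the lists, 1332 in the same direction. The counts were 1488, 2355 and 1849 without the second GSK591, first MS023 or second MS023 library of that pair of groups, and 2920 without the first GSK591 library.

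When the inhibitors were given together with Dex for 3 h and not for 7 days before it, 11 genes were called (0.048%), 4 higher (0.0175%) and 7 lower (0.0305%), and 2913 genes had an unadjusted p below 0.05. Of these 11 genes 3 were also called in the comparison after 7 days of inhibitor and Dex 3 h. DESeq2 called none, and 1879 genes had an unadjusted p below 0.05. The 2 MS023 libraries of this pair of groups were less alike (replicate r 0.924) than those of the other 8 groups so compared (0.960 to 0.982), which leave out untreated cells. Without the first MS023 library 2224 genes were called, and none without the second MS023, first GSK591 or second GSK591 library, where 1225, 1920 and 2015 genes had an unadjusted p below 0.05.

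**Figure D4:**
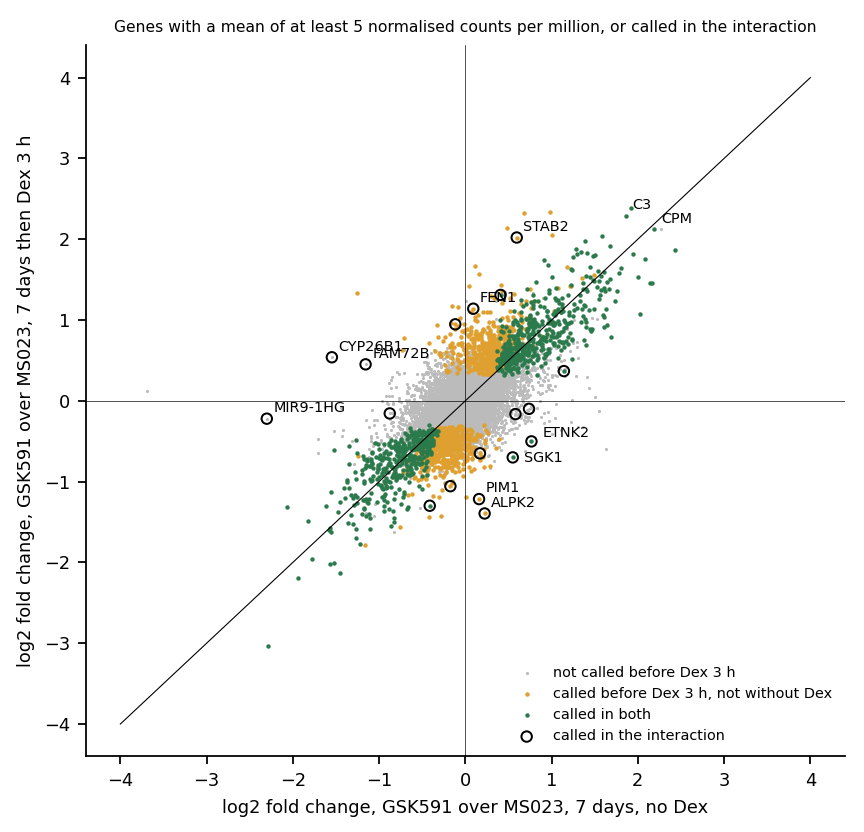
Log2 fold change of GSK591 over MS023 after 7 days and Dex 3 h (vertical) against that after 7 days without Dex (horizontal), for genes with at least 5 cpm on average or called in the interaction. The diagonal is the line of equal change, and the 18 ringed genes, among them SGK1, PIM1, STAB2 and CYP26B1, passed the test of the difference.

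Whether Dex changed the gap between the inhibitors was tested as an interaction, the log2 fold change before Dex 3 h minus that at 7 days. In 18 genes (0.0785% of those tested) the gap differed, 8 with a higher (0.0349%) and 10 with a lower value (0.0436%) with Dex, and 1612 genes had an unadjusted p below 0.05. The count was 6 and 9 without the first or second library of GSK591 alone, 10 without the second library of GSK591 and Dex, 10 without the second library of MS023 alone, and 7 without the second library of MS023 and Dex, while it was 13 to 21 without any of the other 3.

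SGK1 stood at 36.6 and 37 cpm after GSK591 alone and 24.6 and 25.6 after MS023 alone, and at 66.2 and 68.4 against 98.1 and 121 after Dex was added. The order of the inhibitors thus turned, and the interaction was -1.25 ± 0.17 (edgeR adjusted p = 1.25e-05). With Dex alone SGK1 stood at 56.4 and 58. In the authors' deposited tables SGK1 was at 1.42 with GSK591 and 2.28 with MS023 before Dex 3 h, against untreated cells.

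PIM1, the gene of a serine/threonine survival kinase, stood at 39.1 and 38.6 cpm after GSK591 alone and 32.9 and 36.6 after MS023 alone. With Dex added it was at 18 and 17.9 with GSK591 and 37.9 and 45.4 with MS023, both GSK591 libraries below the 26.8 and 27.2 of Dex alone. The interaction was -1.38 ± 0.18 (edgeR adjusted p = 1.09e-05).

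ALPK2, an atypical kinase gene, stood at 14.2 and 13.3 against 13.6 and 9.92 without Dex and at 4.3 and 4.81 against 10.3 and 13.7 with it. Its interaction was -1.62 ± 0.32 (edgeR adjusted p = 0.0248). ETNK2, an ethanolamine kinase gene, stood at 6.86 and 8.84 against 4.18 and 4.99 without Dex and at 21.2 and 25.2 against 30.9 and 34.8 with it (-1.27 ± 0.26, edgeR adjusted p = 0.0262). Each lost its call in 6 of the 8 fits without 1 library, with an edgeR adjusted p of up to 0.217 for ALPK2 without the second library of MS023 alone and 0.261 for ETNK2 without the second library of GSK591 alone. ALPK2 kept it without the first library of MS023, alone or with Dex, and ETNK2 without the second library of GSK591 and Dex or the first of MS023 and Dex.

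**Figure D5:**
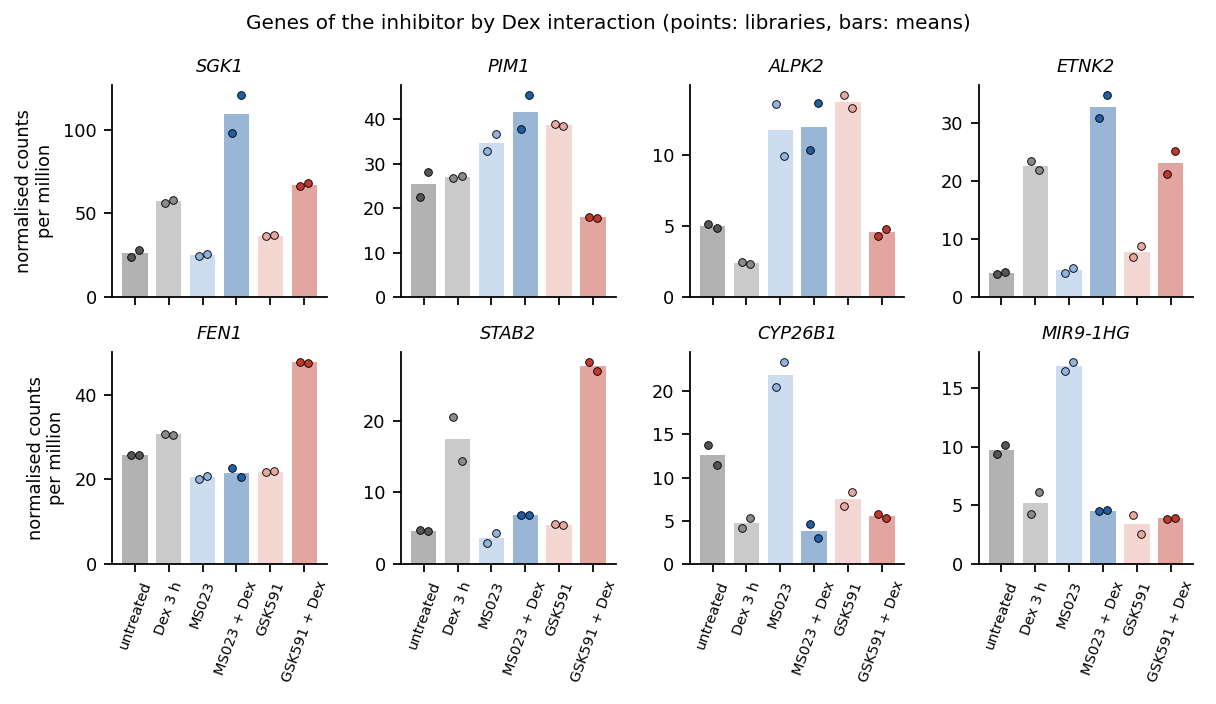
Normalised cpm of 8 genes called in the interaction, in untreated cells, after Dex 3 h, and after MS023 or GSK591 for 7 days without and with Dex 3 h; points are libraries and bars are means of 2. SGK1 is highest after MS023 and Dex, FEN1 and STAB2 after GSK591 and Dex, and CYP26B1 and MIR9-1HG after MS023 alone.

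On the higher side, CYP26B1, which encodes an enzyme that degrades retinoic acid, stood at 6.74 and 8.31 cpm after GSK591 alone and 20.5 and 23.4 after MS023 alone. With Dex the levels were 5.74 and 5.27 against 4.61 and 2.95, so the gap seen without Dex was no longer called (edgeR adjusted p = 0.116). Its interaction was 2.09 ± 0.29 (edgeR adjusted p = 2.57e-05). MIR9-1HG, the host gene of a miR-9 precursor, also had a gap without Dex that was no longer called with it, at 4.18 and 2.55 against 16.5 and 17.2 without Dex and at 3.86 and 3.9 against 4.47 and 4.58 with it (2.08 ± 0.34, edgeR adjusted p = 0.000804).

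FAM72B stood at 3.95 and 5.23 against 9.35 and 11 without Dex and at 9.93 and 10.2 against 6.45 and 8.27 with it (1.61 ± 0.31, edgeR adjusted p = 0.0136). FAM72B has near-identical copies, so its counts are uncertain, and its call was lost in 4 of the 8 fits, with an edgeR adjusted p of 0.211 without the first library of GSK591 alone, 0.114 without the second of MS023 alone, 0.106 without the first of MS023 and Dex, and 0.0705 without the second of GSK591 and Dex. Neither FEN1 nor STAB2 was called between the inhibitors without Dex (log2 fold changes 0.09 ± 0.12 and 0.60 ± 0.25, edgeR adjusted p = 0.734 and 0.13), at 21.6 and 22 against 20.2 and 20.7 for FEN1 and 5.58 and 5.36 against 2.98 and 4.27 for STAB2. Their interactions were 1.05 ± 0.17 (edgeR adjusted p = 0.000555) and 1.43 ± 0.31 (edgeR adjusted p = 0.0457), and that of STAB2 kept its call only without the first library of MS023 alone. In the other 7 fits without 1 library the edgeR adjusted p of STAB2 lay between 0.0737 without the first library of GSK591 and Dex and 0.468 without the second library of MS023 alone.

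Each inhibitor was finally set beside Dex alone, to show on which side of it the gap opened. GSK591 before Dex differed from Dex alone in 3107 genes (13.6%), 1420 higher (6.2%) and 1687 lower, and MS023 before Dex in 2645 (11.5%), 1244 higher (5.43%) and 1401 lower. The first count was 1714 without the second library of Dex alone and 2024 and 1869 without the first or second GSK591 library. The second was 1532 and 1313 without the first or second library of Dex alone and 1595 and 1286 without the first or second MS023 library. CNR1 was higher by 2.56 with GSK591 (edgeR adjusted p = 6.61e-10) and at 0.23 with MS023 (edgeR adjusted p = 0.713). NUPR1 was higher with both, by 1.39 and 3.01. The mitotic list had 31 of 42 genes lower with GSK591 and 13 with MS023, beside 7.36% and 6.11% of all tested genes. The medians of the list were -1.44 and -0.61.

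The direction of the difference was also read from the authors' deposited tables, as the log2 fold change of GSK591 before Dex minus that of MS023 before Dex, each against untreated cells. Of the genes called higher from the counts, 1051 were in both tables and 899 (85.5%) had the same direction. Of those called lower, 850 were there and 797 (93.8%) had the same direction, beside 71.9% of all 15651 tested genes found. For 13 called histone genes found the direction was the same in 13, with a median difference of -1.08. The gaps for C3 (4.2 against 1.89) and AQP3 (2.20 against 5.43) were in the same direction in the authors' deposited tables.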

How the data were processed

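PRO-seq reads of 30 libraries were deposited as 1 table of raw counts per gene, in which the authors counted with featureCounts 2.0.1 of Subread on hg38, per the submitters' processing notes; aligner, feature type and strand setting are not given in the sources used here. The authors' deposited tables of each inhibitor against untreated cells hold log2 fold changes, p-values and a mean normalised signal, per the file headers from DESeq2. Of these, 2 were used, for the direction and size of the difference between the inhibitors, with no test.

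Genes with enough reads (edgeR's filterByExpr, minimum count 10 and minimum total 15) were fitted in edgeR 4.0.16 (R 4.3.3, limma 3.58.1) by quasi-likelihood with robust dispersion over all 15 groups, residual degrees of freedom 15, and p-values were adjusted over the 22919 tested genes with the threshold at 0.05. Fold changes are GSK591 over MS023, and levels are cpm, counts per 1000000 reads after normalisation by the trimmed mean of M-values. Every column of the count table was matched to a library by its name. All 58780 gene IDs were found in the GENCODE annotation. Members and lists were chosen with earlier results of these data known. Named are PRMT5, PRMT1, NR3C1, FKBP5, TSC22D3 and PER1, the 12 largest rises and falls among called genes of at least 5 cpm whose groups do not overlap, the 3 largest interactions of each sign, and up to 4 members of each list with the smallest p. Some genes are not reported here. Promoter sequences are RefSeq's.

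On simulated counts with 200 changed genes of 22536, 5%, 52.8% and 76.5% of changes of 0.5, 1 and 2 on the log2 scale were called in the comparison before Dex 3 h. Of its 98 calls 5.1% were false. The 200 changed genes are fewer than the 2550 called in the data, so these shares may not hold for the data. For the interaction, simulated on 22650 genes, the shares were 0%, 19.7% and 49.2%, and 11.8% of 51 calls were false. Same-numbered libraries of the 2 groups deviated in opposed directions (r = -0.20), so the numbers were not taken to pair them. Over 36 pairs of groups this r ran from -0.45 to 0.49, with 9 over 0.1. Whether libraries of different numbers shared a factor was not tested. The 2 libraries of a group differed by more than sampling noise and were counted separately. Alternatives were other scaling, no filter, no mitochondrial and ribosomal RNA genes, DESeq2 1.42.0, a replicate block, the compared groups alone, and each library left out.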

Additional observations from a re-analysis of the deposited data

Results flagged for a closer look

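In 18 genes the gap between the inhibitors after Dex 3 h differed from the gap after 7 days without Dex, by a test of the difference itself (edgeR's interaction term), and 17 of them are given here. Values are the log2 fold change of GSK591 over MS023 with Dex minus that without it. The kinase genes PIM1 (-1.38), SGK1 (-1.25) and ALPK2 (-1.62) and the ethanolamine kinase gene ETNK2 (-1.27) had the largest negative values. Also below 0 were the cell cycle kinase gene WEE1 (-0.89), the Hippo pathway gene WWC1 (-0.84), the non-coding genes LINC00472 (-0.82) and TPM1-AS (-0.77), and DUSP1 (-0.75), a phosphatase gene that glucocorticoids induce. Above 0 were the retinoic acid hydroxylase gene CYP26B1 (2.09), MIR9-1HG (2.08), FAM72B (1.61), STAB2 (1.43), the signalling inhibitor gene SPRY4 (1.06), FEN1 (1.05), TENT5B (0.90) and the autophagy receptor gene SQSTM1 (0.72). The calls of PIM1, SGK1, FEN1, CYP26B1 and MIR9-1HG held in each of the 8 fits without 1 library. How those fits left the calls of WEE1, WWC1, LINC00472, TPM1-AS, DUSP1, SPRY4, TENT5B and SQSTM1 is not given here. Scaled by total reads, CYP26B1 and MIR9-1HG were the 2 genes still called. For FEN1 the authors' deposited tables had the opposite order of the inhibitors before Dex 3 h (-2.05 with GSK591 and -0.92 with MS023, against untreated cells). For STAB2 those tables showed no gap (0.08 and 0.07). FEN1 also shares exonic bases with other genes.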

How the results depend on the processing

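Scaling by total reads moved the counts of called genes to 12750 (140 higher, 12610 lower) before Dex 3 h, 16029 at 7 days, 13002 before Dex 15 min, 0 for inhibitors given with Dex, 2 for the interaction, 1124 for GSK591 before Dex against Dex alone and 13127 for MS023 before Dex against Dex alone. In that scaling 23 named genes changed sign: CYP26B1 -0.29, IDI1 -0.45, FOSL2 -0.42, RGS2 -0.037, CDKN1A -0.15, SESN2 -0.43, MDM2 -0.28, TPM1 -0.31, NLRC5 -0.42, CARM1 -0.36, C1R -0.13, PRMT2 -0.60, AXL -0.33, FASN -0.48, STAT2 -0.26, JUN -0.21, PER1 -0.72, FAM72B -0.38, FLNA -0.015, TPM2 -0.12, PSMB8 -0.20, EPB41L4A-AS1 -0.28 and TAPBP -0.62.

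DESeq2 called 1421 genes before Dex 3 h, 1138 at 7 days, 2119 before Dex 15 min, 0 for inhibitors given with Dex (1879 with an unadjusted p below 0.05), 1828 for GSK591 and 1364 for MS023 before Dex against Dex alone. Fits of the compared groups alone gave 2376 before Dex 15 min, 0 for inhibitors given with Dex (1123 with an unadjusted p below 0.05) and 54 for the interaction. With no filter on low counts, inhibitors given with Dex had 395 called genes and the interaction 41, and before Dex 3 h the split became 1105 higher and 1134 lower. DESeq2's size factors gave 29 for the interaction. The replicate block gave 42 for inhibitors given with Dex, 34 for the interaction and 2610 before Dex 3 h, and the crossed pairing of the last, added after seeing the data, 2662.

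Without 1 library the counts were 1284 to 1572 before Dex 3 h, 1062 to 1230 at 7 days, 1488 to 2920 before Dex 15 min, 0 to 2224 for inhibitors given with Dex, 6 to 21 for the interaction, 1714 to 2144 for GSK591 and 1286 to 1595 for MS023 before Dex against Dex alone. The cause was not tested. Leaving out mitochondrial and ribosomal RNA genes changed none of the 7 counts by over 1.5 times. How far the reads outside mitochondrial genes limit what low genes can show was not tested. On simulated counts for the comparison before Dex 3 h 5% of changes of 0.5 on the log2 scale were called. Only 200 of 22536 genes were changed there, fewer than the 2550 called in the data, so that share may not hold for the data.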
